A study of Mus musculus with 2 samples.

Results

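The genes described here were 39 interferon-stimulated genes, named from a list of symbols, of 31053 genes in the count tables. The list was chosen with earlier results of these data known, so the counts below describe the list and are no test of it. All 39 had a row and at least 10 UMIs over the cells retained from both libraries (a UMI is a molecular tag, so 1 UMI counts 1 captured transcript). Per the labels, lung cells came from NG2tdT mice, in which tamoxifen (2 mg per 30 g body weight, then 7 days of rest) switches on a tdTomato reporter in cells with an active NG2 (Cspg4) promoter. One library was made from mice kept in room air (Normoxia, labelled as not treated) and 1 from mice breathing 10% oxygen for 21 days (Hypoxia), the exposure used to model pulmonary hypertension, and both carry the label of the same reporter line. The labels describe sorted reporter-positive cells, while the study's text describes whole lung of wild-type mice depleted of CD45+ and CD326+ cells and names another data series, so the genotype and the preparation of these libraries were not settled. The labels speak of replicates, but 1 count table per group was analysed here, so each group was 1 library and no test between groups was possible. The comparison asked how the level of each gene in endothelial cells stood against lymphocytes and macrophages, and how it differed between Hypoxia and Normoxia.

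Interferons are secreted proteins that signal through surface receptors, JAK kinases and STAT proteins. Type I interferon brings a complex that includes STAT2 and IRF9 to the interferon-stimulated response element (ISRE), and interferon gamma acts through the gamma-activated site (GAS). The induced genes include transcription factors that carry the signal on (Irf1, Irf7, Irf9, Stat2), sensors of foreign nucleic acid (Ifih1, Zbp1, and Ifi203 and Ifi204 of the IFI200 family), antiviral effectors such as Isg15 and the Ifit genes, GTPases that act on intracellular pathogens, membrane proteins that block virus entry or release (Ifitm2, Ifitm3, Bst2, Ly6e), and Usp18, which removes ISG15 from proteins and damps type I receptor signalling. Endothelial cells line the vessels and are exposed to interferon from blood and tissue.

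The promoters are shown for the ISRE, the element through which type I interferon acts. RefSeq promoter entries around the transcription start (build GRCm38.p6) were found for 29 of the 39 genes. The ISRE core, GAAANNGAAA read on both strands, was present in 18 of the 29 (62.1%), against 3.99% of 27025 promoters of all genes. The GAS letters, TTCNNNGAA on both strands, were in 9 of the 29 (31.0%), against 9.55% of all promoters. These are matches of letters and not measured binding sites. The 120 bases before the start are printed below for 5 genes, with ISRE core matches in capitals: Isg15 and Gbp3, which were lower in Hypoxia endothelial cells, Ifit1, which carries 2 matches, and Ifitm2 and Gbp7, whose levels differed little. The windows lie at chr4:156200819-156200938 on the minus strand (Isg15), chr3:142559924-142560043 on the plus strand (Gbp3), chr19:34640769-34640888 on the plus strand (Ifit1), chr7:140955962-140956081 on the minus strand (Ifitm2) and chr3:142530216-142530335 on the plus strand (Gbp7).
Isg15: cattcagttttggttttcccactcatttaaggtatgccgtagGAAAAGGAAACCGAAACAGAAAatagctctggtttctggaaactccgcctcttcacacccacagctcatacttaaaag
Gbp3: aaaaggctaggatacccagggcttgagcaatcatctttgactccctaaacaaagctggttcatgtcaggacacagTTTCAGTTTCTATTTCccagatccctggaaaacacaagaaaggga
Ifit1: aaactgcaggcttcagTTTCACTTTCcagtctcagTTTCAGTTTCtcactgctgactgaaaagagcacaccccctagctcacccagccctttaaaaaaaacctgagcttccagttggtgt
Ifitm2: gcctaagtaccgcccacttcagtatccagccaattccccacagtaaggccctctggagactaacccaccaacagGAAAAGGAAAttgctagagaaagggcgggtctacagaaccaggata
Gbp7: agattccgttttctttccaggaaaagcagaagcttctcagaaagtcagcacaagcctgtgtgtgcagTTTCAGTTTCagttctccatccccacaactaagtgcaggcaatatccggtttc
Isg15 held 3 overlapping matches, which begin 78, 72 and 66 bases before the start when the window is read along the gene. A match occurred in 2 of the 3 promoters available for the genes at least 2-fold lower in Hypoxia endothelial cells and in 14 of the 22 available for the other genes measured there. The letters were thus found in genes at least 2-fold lower and in genes short of 2-fold. The latter included Bst2, Gbp2 and Ifi203, whose counting intervals also lay below 0.

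The Normoxia library held 373 barcodes and 1323874 UMIs and the Hypoxia library 613 barcodes and 1989423 UMIs, of which 293 and 453 barcodes passed the filters on detected genes and mitochondrial UMIs. They fell into 14 clusters. Cspg4, the gene whose promoter drives the reporter, had a UMI in 1 of 293 Normoxia and 2 of 453 Hypoxia cells, so the label of reporter-positive cells could not be checked on it. Endothelial cell-like cells, in clusters 2, 6, 9, 10 and 13, were 117 of the Normoxia cells (39.9%) and 218 of the Hypoxia cells (48.1%), with a median of 2650 and 2835 UMIs per cell. Lymphocyte-like cells (T or NK cell-like and B cell-like) numbered 44 and 130, and macrophage or monocyte-like cells 28 and 45. The makeup of the classes differed between the libraries: cluster 9 was the largest endothelial cluster in Normoxia and cluster 2 in Hypoxia, and cluster 8 held most Normoxia and clusters 12 and 14 most Hypoxia macrophage or monocyte-like cells. The libraries shared 2 barcodes. Each endothelial cluster met the naming rule on at least 16 endothelial markers, Cdh5, Pecam1 and Cldn5 among them, although cluster 6 was led by Scgb1a1, a gene of airway club cells.

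Endothelial cell-like cells carried a higher summed level of the 39 genes than lymphocyte-like, macrophage or monocyte-like and fibroblast-like cells, and most of it came from 3 membrane protein genes. Levels are given as CPM, the UMIs of a gene scaled to the total UMIs of the class. Intervals are at 95% and account for the error of counting alone. Neutrophil-like cells, 2 in Normoxia, were too few to compare. The sum was 10445 CPM (10114 to 10784) in Normoxia and 9161 CPM (8950 to 9375) in Hypoxia endothelial cells, against 2696 and 2662 CPM in lymphocyte-like, 5846 and 3771 CPM in macrophage or monocyte-like and 6111 and 7052 CPM in fibroblast-like cells. Ly6e, Ifitm2 and Ifitm3 together made up 6836 CPM of the Normoxia and 6678 CPM of the Hypoxia endothelial sum. The remaining 36 genes came to 3608 CPM in Normoxia and 2483 CPM in Hypoxia endothelial cells. UMIs at the 3′ end count molecules and do not grow with transcript length. Reads of near-identical copies may not be assigned to 1 gene: 77.8% of the 3′-end windows of Gbp6, 56.1% of those of Oas1a and 41.9% of those of Ifitm2 also occur in other genes, so the levels of these genes are uncertain.

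**Figure D1:**
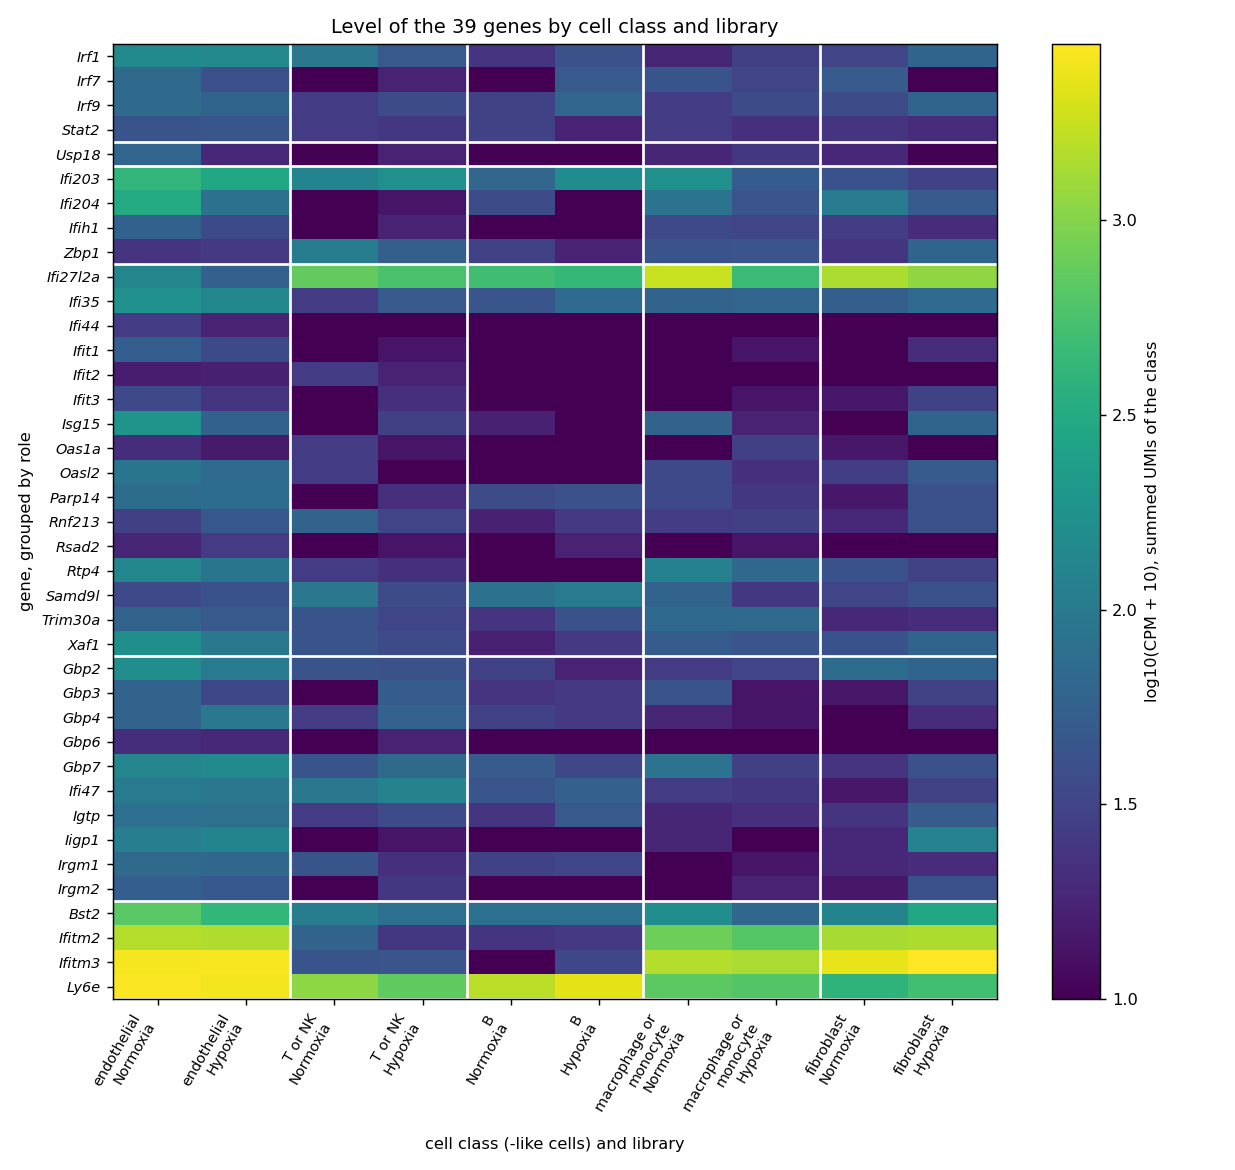
Heat map of the level of each of the 39 genes (rows, ordered by role) in 5 cell classes of each library (columns), on a log10(CPM + 10) colour scale. Ifitm3, Ifitm2 and Ly6e are the brightest rows in endothelial cells, Ifi27l2a is brighter in every other class shown than in endothelial cells, and most effectors and GTPases are dark outside the endothelial columns.

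Ifitm2 and Ifitm3 had the largest folds of endothelial over lymphocyte-like cells among the genes with a UMI there in both libraries, but were under 2-fold over macrophage or monocyte-like cells in at least 1 library. Ifitm3, which hinders the fusion of viruses with the endosome, stood at 2618 CPM in Normoxia and 2680 CPM in Hypoxia endothelial cells, and had 2 UMIs (9.68 CPM) and 12 UMIs (30.5 CPM) in lymphocyte-like cells. Ifitm2 stood at 1503 and 1427 CPM in endothelial cells, with 5 and 6 UMIs in lymphocyte-like cells. Both genes in lymphocyte-like cells were at or below a level estimated for free RNA from 11 endothelial markers. These reached 3.94% of their endothelial level in Normoxia and 1.56% in Hypoxia lymphocyte-like cells. Of the 142 Normoxia marker UMIs, 109 lay in 1 T or NK cell-like cell, so the Normoxia estimate rests mostly on that cell. In Normoxia B cell-like cells the markers reached 1.02%. Ifitm2, at 1.61% of its endothelial level in Normoxia lymphocyte-like cells, lay above that, and Ifitm3, at 0.37%, below. In macrophage or monocyte-like cells Ifitm3 stood at 1493 and 1386 CPM and in fibroblast-like cells at 2273 and 2827 CPM, so neither gene was particular to endothelium. Ly6e, a small membrane-anchored protein, was present in all classes, at 2715 and 2571 CPM in endothelial, 1433 and 1218 CPM in lymphocyte-like, and 667 and 621 CPM in macrophage or monocyte-like cells. The lymphocyte-like value joins B cell-like cells, at 1574 CPM in Normoxia and 2247 CPM in Hypoxia, and T or NK cell-like cells, at 1086 and 708 CPM. Bst2 (tetherin), which holds budding virus on the cell surface, stood at 652 CPM (571 to 741) in Normoxia and 409 CPM (365 to 456) in Hypoxia endothelial cells and at 77.4 and 68.7 CPM in lymphocyte-like cells.

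Against lymphocyte-like cells, 20 of the 34 genes with at least 20 UMIs over these cells were at least 2-fold higher in endothelial cells in both libraries, and 2 were at least 2-fold lower. Over all 8103 genes with as many UMIs, 33.5% were higher and 6.96% lower by the same rule. The minimum was summed over both classes, so a gene, in the set or not, could pass on its endothelial UMIs alone. The 20 were Irf1, the sensors Ifi204 and Ifih1, the effectors Ifit1, Isg15, Ifi35, Oasl2, Rtp4, Xaf1 and Parp14, the GTPases Iigp1, Igtp, Irgm1, Irgm2, Gbp2, Gbp4 and Gbp7, and Bst2, Ifitm2 and Ifitm3. Iigp1, an immunity-related GTPase that attacks the vacuoles of parasites, stood at 103 CPM in Normoxia and 119 CPM in Hypoxia endothelial cells, with 0 UMIs in Normoxia and 1 UMI in Hypoxia lymphocyte-like cells. Against a floor of 3 UMIs in Normoxia lymphocyte-like cells, that is at least 7.07-fold higher in endothelial cells. Gbp2, a guanylate-binding protein, was 6.19-fold higher in Normoxia and 4.19-fold higher in Hypoxia, and Irf1 4.09-fold and 3.77-fold. The level of Ifitm2 and Ifitm3 in lymphocyte-like cells did not exceed the free RNA estimate given above in either library. That of 10 further genes (Ifih1, Ifit1, Ifit3, Iigp1, Irf7, Irgm2, Isg15, Oasl2, Rtp4 and Usp18) did not exceed it in 1 of the libraries. The Normoxia estimate rests mostly on 1 cell. Against the 1.02% of Normoxia B cell-like cells, Ifitm2 (1.61%), Isg15 (2.77%) and Rtp4 (3.88%) lay above it in Normoxia.

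Ifi27l2a, a small interferon-induced membrane protein, was the clearest exception. It stood at 119 CPM in Normoxia and 46.0 CPM in Hypoxia endothelial cells, against 561 and 506 CPM in lymphocyte-like, 1768 and 461 CPM in macrophage or monocyte-like and 1412 and 1110 CPM in fibroblast-like cells. Zbp1, a sensor of Z-form nucleic acid, was 3.14-fold higher in Normoxia and 2.16-fold higher in Hypoxia lymphocyte-like than endothelial cells, on 9 and 13 UMIs there. In the Normoxia T or NK cell-like cells, 1 of 13 cells held 40.8% of the UMIs of the set and 109 endothelial marker UMIs.

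Against macrophage or monocyte-like cells, 19 of 34 genes were at least 2-fold higher in endothelial cells in both libraries and 2 (Ifi27l2a and Zbp1) at least 2-fold lower. Among all 7928 genes measured in these cells the shares were 26.9% and 7.24%. Here too the minimum was summed over both classes, so a gene could pass on its endothelial UMIs alone. Of the 19, 15 were also among the 20 above (78.9% of the 19 and 75.0% of the 20), and the other 4 were Ifit3, Ifi203, Ifi47 and Ly6e. A level of 0 counted as lower, and for Ifit1, Ifit3 and Irgm2, with 0 UMIs in Normoxia macrophage or monocyte-like cells, the bound against 3 UMIs was under 2-fold. Ly6e was 4.07-fold higher in Normoxia endothelial cells. Irgm1, a GTPase of autophagy, had 0 UMIs in Normoxia and 1 UMI in Hypoxia macrophage or monocyte-like cells and stood at 61.0 and 56.2 CPM in endothelial cells. In Normoxia 1 macrophage or monocyte-like cell held 33.5% of the UMIs of the 36 genes other than Ly6e, Ifitm2 and Ifitm3.

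**Figure D2:**
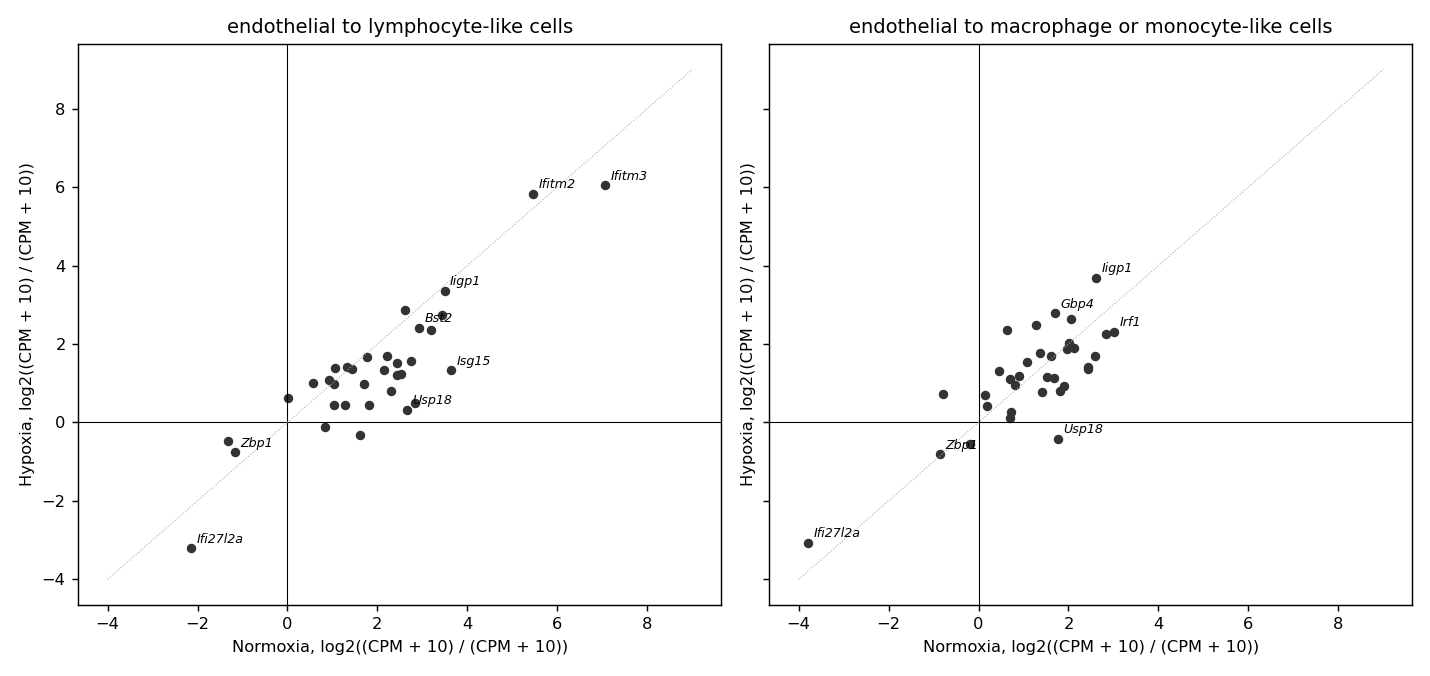
Each point is a gene with at least 20 UMIs, placed by its log2 ratio of endothelial to lymphocyte-like (left) or macrophage or monocyte-like cells (right), Normoxia on the x axis and Hypoxia on the y axis, after adding 10 CPM to each level. Most points lie right of and above 0 in both panels, Ifitm2 and Ifitm3 are far out on the left panel but not on the right, and Ifi27l2a lies below 0 in both.

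In endothelial cells, Hypoxia against Normoxia, 33 of the 39 genes had at least 20 UMIs, and 6 of them were at least 2-fold lower in Hypoxia. None was at least 2-fold higher. Among the 6, the Normoxia level of Ifi27l2a rested in large part on cells with fibroblast markers, described below. Over the 6918 genes measured in these cells, 5.03% were at least 2-fold lower and 5.98% at least 2-fold higher. The 33 genes had a median log2 ratio of -0.33, and all genes a median of 0.026. The counting interval lay below 0 for 11 genes, above 0 for 1 and held 0 for 21. No share over all genes is given for this interval rule, so these counts describe the set alone. The 6 genes with 7 to 17 UMIs in endothelial cells (Ifit2, Ifi44, Gbp6, Oas1a, Rsad2 and Zbp1) were too shallow to compare.

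**Figure D3:**
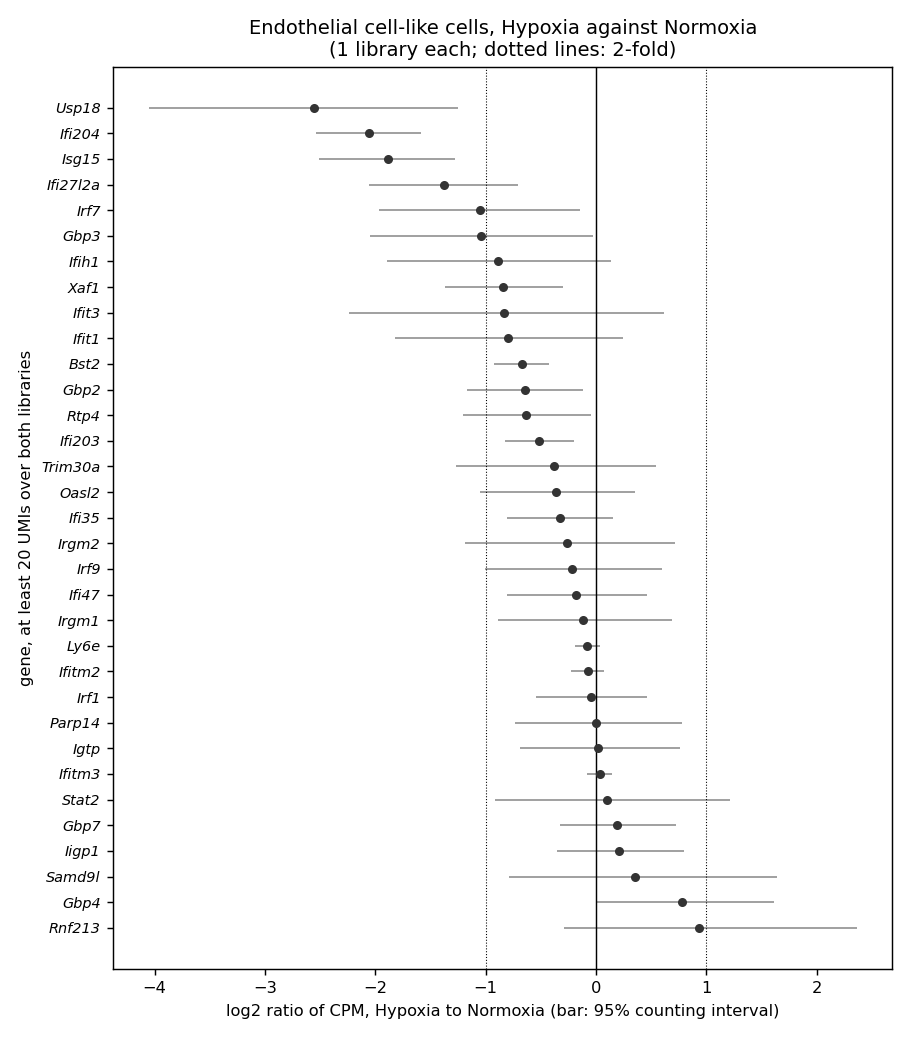
Log2 ratio of CPM in endothelial cell-like cells, Hypoxia to Normoxia (x axis), for the 33 genes with at least 20 UMIs (y axis), with 95% counting intervals. Usp18, Ifi204, Isg15, Ifi27l2a, Irf7 and Gbp3 lie beyond the left dotted line (2-fold lower), and the abundant Ly6e, Ifitm2 and Ifitm3 lie at 0 with the narrowest intervals.

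The sensor Ifi204 (chr1:173747293-173766943, minus strand, GRCm38) had 111 Normoxia and 58 Hypoxia UMIs in endothelial cells, 308 CPM (253 to 371) and 74.1 CPM (56.3 to 95.8), a log2 ratio of -2.06 (-2.54 to -1.58). With every cell reduced to 1000 UMIs, 31 of 112 Normoxia cells (27.7%) and 13 of 210 Hypoxia cells (6.19%) had an Ifi204 UMI, a difference of -21.5 percentage points (-30.8 to -13.0). Ifi203, of the same family and also on chromosome 1, differed less, with 399 and 280 CPM and a log2 ratio of -0.51 (-0.82 to -0.20). Ifih1 (MDA5), which senses long double-stranded RNA, had 17 and 20 UMIs and a ratio of -0.88 whose interval (-1.89 to 0.14) held 0.

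Isg15 (chr4:156199424-156200818, minus strand), a ubiquitin-like protein that is attached to other proteins, had 63 Normoxia and 37 Hypoxia UMIs in endothelial cells. The levels were 175 CPM (134 to 224) and 47.3 CPM (33.3 to 65.1), a log2 ratio of -1.89 (-2.51 to -1.28), and the intervals of the levels did not overlap. Usp18 (chr6:121245906-121270917, plus strand), which removes it again, had 19 and 7 UMIs, 52.7 and 8.94 CPM, and a log2 ratio of -2.56 (-4.05 to -1.25). In each library 3 cells held much of it, 47.4% of the Normoxia and 57.1% of the Hypoxia UMIs, and the thinned share of cells, 1.79% and 0.476%, differed by -1.31 points (-5.82 to 1.22). Among the other effectors, Xaf1, a promoter of cell death, stood at 155 and 86.9 CPM (log2 ratio -0.84, -1.37 to -0.30) and Rtp4 at 125 and 80.5 CPM (-0.63, -1.21 to -0.05). The thinned shares of cells with Xaf1, 11.6% and 11.9%, differed by 0.30 points (-7.84 to 7.22). Those with Rtp4, 10.7% and 6.67%, differed by -4.05 points (-11.6 to 2.10). Ifit1 and Ifit3, which bind viral RNA and act in a complex, had ratios of -0.80 and -0.83 on 36 and 20 UMIs in all, and their intervals held 0. Ifi35, Oasl2, Trim30a, Parp14 and Samd9l ranged from -0.38 to 0.36, with intervals that held 0, and Rnf213, a large ubiquitin ligase, stood at 0.93 (-0.29 to 2.37).

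The ratio of Ifi27l2a rested on few cells. Its 43 Normoxia and 36 Hypoxia UMIs in endothelial cells gave a log2 ratio of -1.37 (-2.06 to -0.70), and the 3 cells with most UMIs held 76.7% and 72.2% of them. Markers of fibroblasts, where Ifi27l2a was high, moved with it: the 9 fibroblast markers summed to 541 UMIs in Normoxia and 46 in Hypoxia endothelial cells. A group of 5 Normoxia and 3 Hypoxia cells of the endothelial class held at least 10 UMIs of other classes' markers. These cells held 496 and 25 of the fibroblast UMIs and 26 and 1 of the Ifi27l2a UMIs. The 5 Normoxia cells had 3 UMIs of endothelial markers, against 310 in the 3 Hypoxia cells. By their markers the 5 were thus fibroblast-like, and they held 274 of the 3766 Normoxia UMIs of the set in this class. Without these 5 and 3 cells the log2 ratio of Ifi27l2a was -0.18, that of Isg15 -1.96, that of Ifi204 -2.23 and that of Usp18 -2.66, and 4 genes in place of 6 were at least 2-fold lower. Leaving these cells out was an alternative chosen after the data had been seen.

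The transcription factors differed among themselves. Irf7, the factor that amplifies type I interferon, had 22 and 23 UMIs, 61.0 CPM in Normoxia and 29.4 CPM in Hypoxia, and a log2 ratio of -1.05 (-1.96 to -0.14). Irf1 stood at 139 and 134 CPM (-0.05, -0.55 to 0.47), and Irf9 and Stat2, which act together in type I signalling, at -0.22 and 0.10 with intervals that held 0.

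The GTPases showed no shared direction. Gbp3 had 18 and 19 UMIs and a log2 ratio of -1.04 (-2.05 to -0.03), and Gbp2 stood at 150 and 95.8 CPM (-0.64, -1.17 to -0.11). The thinned shares of cells with Gbp2, 8.93% and 8.57%, differed by -0.36 points (-7.76 to 5.72). The direction of Gbp2 turned with equal weight per cell (0.073) and with classes set cell by cell (0.64). Gbp4, another guanylate-binding protein, was the only gene of the set whose interval lay above 0, on 18 Normoxia and 67 Hypoxia UMIs, 49.9 and 85.6 CPM, and a ratio of 0.78 (0.01 to 1.62). Without endothelial cluster 2, which held 50 of the 67 Hypoxia UMIs, its ratio was -0.31. Part of the 3′-end windows of Gbp4 (19.4%) match related Gbp genes. Gbp7, Iigp1, Igtp, Irgm1, Irgm2 and Ifi47 lay between -0.26 and 0.21, and the 10 GTPases summed to 754 CPM in Normoxia and 719 CPM in Hypoxia.

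Of the membrane proteins only Bst2 had an interval off 0, where 235 Normoxia and 320 Hypoxia UMIs gave a log2 ratio of -0.67 (-0.92 to -0.42). The share of cells with a Bst2 UMI at 1000 UMIs per cell was 38.4% in Normoxia and 40.5% in Hypoxia, a difference of 2.08 points (-9.17 to 12.9), so no order was read from the shares. Ly6e (979 and 2013 UMIs), Ifitm2 (542 and 1117) and Ifitm3 (944 and 2098) had ratios of -0.08, -0.08 and 0.03, and their intervals reached from -0.22 to 0.15 at the widest. The summed level of all 39 genes had a log2 ratio of -0.19 (-0.25 to -0.13), that of the 36 others -0.54 (-0.64 to -0.44), and that of the 3 abundant genes -0.03 (-0.10 to 0.04). With classes set cell by cell from markers in place of clusters, the sum of 39 stood at 0.0087, almost no difference, and that of the 36 at -0.28. A sum of 16 genes of dissociation stress, such as Fos and Jun, was also lower in Hypoxia endothelial cells, at 5017 and 3573 CPM, and haemoglobin, a sign of free RNA from blood, at 541 and 220 CPM. Their part in the lower levels of the interferon genes was not tested.

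The endothelial clusters separated genes that were lower throughout from genes that were lower in some. The 4 clusters with at least 10 cells in both libraries were cluster 2, led by Ntrk2 and Cdk19, cluster 6, with Vwf and Lyve1, cluster 9, led by Plvap, and cluster 10, led by Car4, the marker of the capillary cells called aerocytes. Isg15 was lower in Hypoxia in all 4, with log2 ratios of -1.84, -2.12, -1.88 and -2.13, and each interval lay below 0, although cluster 6 held 15 UMIs, under the minimum of 20. In Normoxia its level was 167, 104, 168 and 370 CPM in these clusters. A single Normoxia cell of cluster 10 held 13 Isg15 UMIs, so the level and the ratio in cluster 10 rest in large part on 1 cell. Ifi204 was lower in clusters 2, 9 and 10 (-2.63, -2.28 and -2.64, the last on 11 UMIs) and had a ratio of -1.0 in cluster 6, where the interval (-2.29 to 0.24) held 0. Usp18 lay below 0 in all 4, on 4 to 12 UMIs per cluster, and its interval held 0 in clusters 2, 6 and 9.

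Bst2 stood at 450 CPM in Normoxia and 447 CPM in Hypoxia in cluster 2, but at 538 and 234 CPM in cluster 6 and 971 and 494 CPM in cluster 9. Ifitm3, flat over the whole class, had 55 UMIs (926 CPM) in Normoxia and 22 UMIs (267 CPM) in Hypoxia in the Car4 cluster 10, a log2 ratio of -1.80 (-2.58 to -1.06), and its levels there were below those of the other clusters in both libraries. Gbp4 was higher in Hypoxia in cluster 2, with 3 and 50 UMIs (1.75, 0.12 to 4.07). Gbp2 was lower in cluster 6 (274 and 114 CPM), and Irf1 in cluster 9 (248 and 119 CPM). The median log2 ratio of the genes of the set was 0.0086, -0.11, -0.90 and -0.22 in clusters 2, 6, 9 and 10, on 25, 13, 16 and 9 genes, against 0.0086, 0.095, -0.027 and -0.0036 for all genes measured in each.

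**Figure D4:**
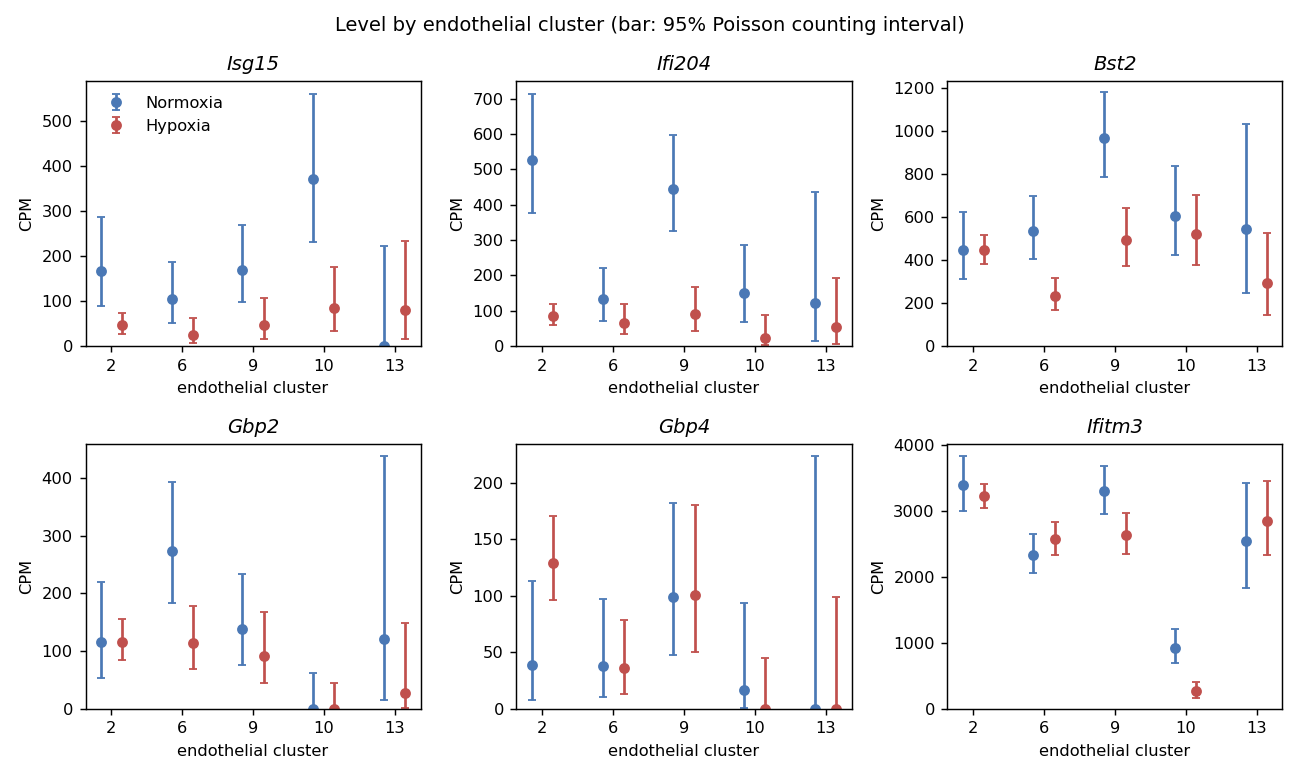
Level in CPM (y axis) of 6 genes in the 5 endothelial clusters (x axis), Normoxia in blue and Hypoxia in red, with 95% Poisson counting intervals. Isg15 is lower in Hypoxia in clusters 2, 6, 9 and 10, Bst2 only in 6 and 9 beyond the overlap of the intervals, and Ifitm3 is low in cluster 10; cluster 13 has 4 Normoxia and 6 Hypoxia cells.

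The Isg15 UMIs of Normoxia were concentrated in few cells. There 24 of 117 endothelial cells held the 63 Isg15 UMIs, and 3 of them held 41.3%. In Hypoxia 30 of 218 held 37 UMIs, 21.6% of them in 3 cells. At 1000 UMIs per cell the share of cells with an Isg15 UMI was 10.7% (12 of 112) in Normoxia and 5.71% (12 of 210) in Hypoxia, a difference of -5.0 points whose interval (-12.5 to 1.0) held 0. The Hypoxia share depended on the random draw: with another seed it was 2.38% (5 of 210) and the Normoxia share again 10.7%, and at 500 UMIs per cell the shares were 9.40% and 3.67%. Unthinned it was 20.5% and 13.8%, and the thinned share in lymphocyte-like cells, 0% of 44 and 0.775% of 129, was lower.

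Cells that held many of these transcripts at once made up a larger share of the Normoxia library, although the counting intervals overlapped. Of the 36 genes without Ly6e, Ifitm2 and Ifitm3, at least 5 were found at 1000 UMIs per cell in 25 of 112 cells in Normoxia (22.3%, interval 15 to 31.2) and in 25 of 210 in Hypoxia (11.9%, interval 7.85 to 17.1), and the median was 2 in both libraries. In Normoxia, cells with an Isg15 UMI had a mean of 5.25 ± 2.77 (SD, n = 12 cells) of the other genes and cells without it 2.50 ± 1.79 (n = 100 cells). In Hypoxia these means were 3.83 ± 2.66 (n = 12 cells) and 2.31 ± 1.70 (n = 198 cells). For Iigp1 the means with and without a UMI were 5.40 and 2.56 in Normoxia and 3.45 and 2.24 in Hypoxia. Gbp7 showed less of this, with 3.38 and 2.71 in Normoxia and 2.89 and 2.23 in Hypoxia. For Ifi204 the means were 3.03 and 2.47 in Normoxia, but 2.15 and 2.41 in Hypoxia. For Bst2 they were 2.72 and 2.39 in Normoxia and 2.09 and 2.02 in Hypoxia. Cells of 1 library do not replicate a condition, and these means are a description. The highest Normoxia cell, of cluster 10, held 62 UMIs over 22 of the 36 genes, with 13 Isg15 UMIs.

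**Figure D5:**
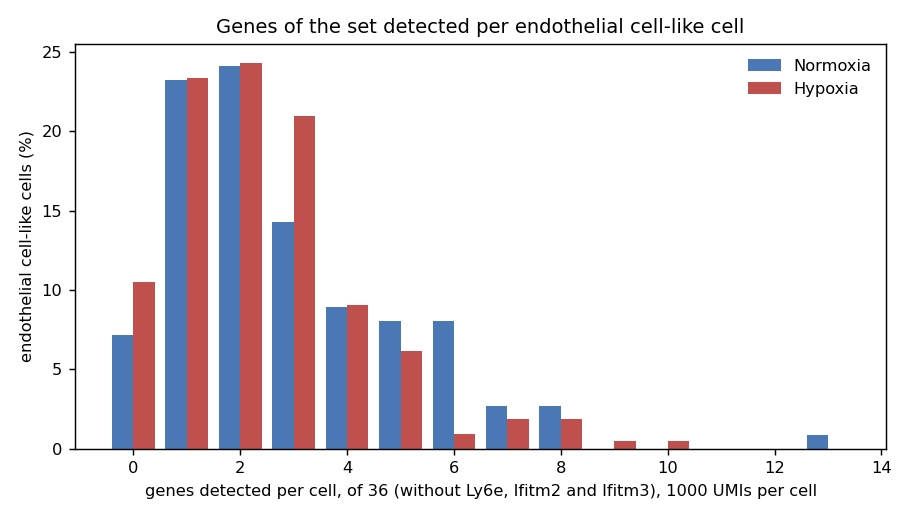
Share of endothelial cell-like cells in percent (y axis) by the number of genes detected of the 36 without Ly6e, Ifitm2 and Ifitm3 (x axis), each cell reduced to 1000 UMIs, for 112 Normoxia (blue) and 210 Hypoxia cells (red). Both libraries peak at 1 to 3 genes, and the Normoxia bars are higher at 6 genes and reach 13.

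Outside endothelium most genes of the set had few UMIs, and Ifi27l2a, Ly6e, Ifitm2 and Ifitm3 were the abundant ones. Over all retained cells, 4 of 35 genes (Isg15, Ifi204, Ifi27l2a and Usp18) were at least 2-fold lower in Hypoxia and 2 (Gbp4 and Rsad2) at least 2-fold higher, where 8.13% and 6.21% of 9813 genes were. The interval of Rsad2, on 21 UMIs, held 0. The medians were 0.058 for the set and 0.040 for all genes. In macrophage or monocyte-like cells Ifi27l2a stood at 1768 CPM in Normoxia and 461 CPM in Hypoxia (-1.94, -2.27 to -1.61), and in lymphocyte-like cells at 561 and 506 CPM. The 36 genes without Ly6e, Ifitm2 and Ifitm3 summed to 2885 CPM in Normoxia and 1139 CPM in Hypoxia macrophage or monocyte-like cells, a log2 ratio of -1.34 (-1.57 to -1.11), larger than in endothelial cells. There 1 Normoxia cell held 33.5% of these UMIs, and different clusters made up the class in each library. The same sum had a ratio of 0.19 (-0.03 to 0.41) in lymphocyte-like and 0.14 (-0.09 to 0.37) in fibroblast-like cells, with intervals that held 0. In fibroblast-like cells Iigp1 was found with 2 Normoxia and 11 Hypoxia UMIs, 7 of the 11 in 1 cell, and Ifitm3 stood at 2273 and 2827 CPM.

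Of 60 other genes of the interferon pathway, 58 had a row and 29 reached 20 UMIs in endothelial cells. Of these, 2 were at least 2-fold lower in Hypoxia (Ifit3b, -2.62, and Eif2ak2, the kinase PKR, -1.0) and 1 at least 2-fold higher (Adar, 1.20), and the median was -0.12. Of all 6918 genes measured in these cells, 5.03% were at least 2-fold lower and 5.98% at least 2-fold higher, with a median of 0.026. The intervals of Eif2ak2 and Adar held 0. Tgtp2, a GTPase, had 28 and 118 UMIs and a ratio of 0.96 (0.35 to 1.61). Ifit3b is near-identical to Ifit3, so their reads can be split between them. Of the 8 ligands 6 had 0 UMIs in the retained cells and none reached 20 in endothelial cells. Among the receptors, Ifnar1 and Ifnar2, the chains for type I interferon, had log2 ratios of -0.32 and -0.28 with intervals that held 0. Ifngr1, a chain of the receptor for interferon gamma, was higher in Hypoxia (98 and 365 UMIs, 272 and 466 CPM, 0.78, 0.45 to 1.12) and its partner Ifngr2 lower (133 and 72.8 CPM, -0.87, -1.45 to -0.29). The inhibitor Socs3 stood at 158 and 98.3 CPM (-0.68, -1.20 to -0.16).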

How the data were processed

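The 2 matrices hold UMI counts, deposited by the authors as whole numbers without scaling. Their headers name Cell Ranger 3.1.0, and the submitters' processing notes name mm10 and Seurat. Amplification copies were already collapsed into UMIs. Whether animals were pooled is not given in the sources used here. The members and lists were chosen with earlier results of these data known.

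The limits of the study's methods were applied: 200 to 6000 detected genes per barcode and a mitochondrial share of 5% at most. Its results text gives a lower maximum of genes, which was tried as an alternative. Cells of both libraries were clustered with scanpy 1.11.5 (2000 variable genes without the interferon genes, 15 components, 15 neighbours, Leiden resolution 1). A cluster was named from the class with most markers, each detected in at least 25% of cells at 2 times the median CPM; at least 4 were required. This minimum was raised after the clusters had been seen, and cluster 1, led by Calca, Arg1 and Il1rl1, stayed unnamed. Cluster 5 had most markers of fibroblasts but was led by Hhip, Rgs5 and Acta2, pericyte and smooth muscle markers, and also stayed unnamed. Doublets were kept; Scrublet marked 1 Normoxia and 2 Hypoxia cells.

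For each class and library, UMIs were summed and scaled to the class total. Levels have exact Poisson intervals, ratios exact conditional binomial intervals, shares Clopper-Pearson intervals and differences of shares Newcombe intervals. Genes with at least 20 UMIs over the compared cells were described, and 2-fold was the threshold. With 1 library per group there was no test. A level of 0 was set against 3 UMIs. The ratio script was tested on simulated data. Gene positions and 3′-end overlaps came from GENCODE M21 (GRCm38). Members with at least 20 UMIs over both libraries were named with values, and the others by range. Alternatives are given in the closing section. Python 3.11.15, scipy 1.17.1 and numpy 2.4.6 were used. A gene of the pathway list is not reported here by name.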

Additional observations from a re-analysis of the deposited data

Results flagged for a closer look

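A total of 4 genes differed in opposite directions between endothelial cell-like cells and another class, each with a counting interval off 0 in both, and these differences between classes were not tested. Irf7 had a log2 ratio, Hypoxia to Normoxia, of -1.05 in endothelial cells. B cell-like cells held 0 Normoxia and 5 Hypoxia UMIs of it, which is at least 0.91 against 3 UMIs. The interval of Irf7 there began at 0.04. Ifi203 stood at -0.51 in endothelial and 1.42 in B cell-like cells, on 8 and 19 UMIs there. Isg15 stood at -1.89 in endothelial cells and at least 1.93 in fibroblast-like cells, on 0 and 5 UMIs there. Of these 5 UMIs, 3 lay in 1 cell. Bst2 stood at -0.67 in endothelial and 1.24 in fibroblast-like cells, on 26 and 27 UMIs there.

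The barcodes left out by the filters also held these transcripts, summing to 2493 CPM over 80 Normoxia barcodes and 3980 CPM over 160 Hypoxia barcodes, which were not part of the comparisons.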

How the results depend on the processing

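With 1 library per group, counting error is the only error shown, and genes under 20 UMIs were too shallow for a ratio. Of 258 recomputed summary values 222 stayed inside the counting interval, or within 1.5 times for counts, and 47 of 627 single-gene ratios in endothelial cells, of 19 genes, changed sign. Their counting intervals in the main setting held 0, except those of Gbp2, at 0.64 with classes set cell by cell and 0.073 with equal weight per cell, and Gbp4, at -0.31 without endothelial cluster 2. Isg15 ranged from -2.01 to -1.58, Ifi204 from -2.32 to -1.84, Usp18 from -3.58 to -2.20 and Ifi27l2a from -4.16 to -0.18. Where values moved, the cause was not tested. The summed log2 ratios of endothelial to lymphocyte-like cells were 1.95 in Normoxia and 1.78 in Hypoxia, and to macrophage or monocyte-like cells 0.84 and 1.28. With a mitochondrial maximum of 10% the latter were 0.97 and 1.41, and without a maximum 1.10 and 1.49, with 2.14 against lymphocyte-like cells in Normoxia. With classes set cell by cell they were 1.57 and 1.52 against lymphocyte-like cells and 1.80 against Hypoxia macrophage or monocyte-like cells. That setting kept 104 Normoxia and 142 Hypoxia endothelial, 10 and 27 lymphocyte-like, and 5 and 9 macrophage or monocyte-like cells. With it 3 genes were at least 2-fold lower and 2 higher in Hypoxia endothelial cells, and 0 were lower in endothelial than in macrophage or monocyte-like cells. The Hypoxia to Normoxia ratio of the 39-gene sum was then 0.0087, almost no difference, and that of 36 genes was -0.28. Without mitochondrial and ribosomal protein genes in the total, the class ratios were 1.27 and 1.24, and 0.61 and 1.10. With equal weight per cell the ratios to macrophage or monocyte-like cells were 1.23 and 1.18 and the 36-gene ratio -0.40, and without the cell with most UMIs of the set they were 1.16 and 1.41. The count of genes lower in endothelial than in macrophage or monocyte-like cells was 1 in place of 2 under both mitochondrial settings, equal weight, the left-out cell and a minimum of 50 UMIs, and that against lymphocyte-like cells was 1 without a mitochondrial maximum, with equal weight and at 50 UMIs. At 50 UMIs 3 genes were lower in Hypoxia endothelial cells and 1 higher over all retained cells. At 1.5-fold 13 of 33 were lower and 2 higher in endothelial cells, where 13.3% and 15.6% of all genes were, and 6 of 35 were higher over all cells, where 15.8% of all genes were. Without endothelial cluster 9, 2 were at least 2-fold higher. Apart from the 1.5-fold threshold, no shares over all genes are given for these alternatives, so their counts describe the set alone. Leiden resolutions 0.5 and 1.5 put every cell in the same class. A set of 3 alternatives (names from 3 markers, deep Hypoxia cells left out, cells with other classes' markers left out) were chosen after seeing the data. No paired analysis was possible because each group had 1 library and the result came from no test.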
